A study of Mus musculus with 6 samples.

Results

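The megalin endocytic receptor complex was followed through 5 genes, Lrp2, Cubn, Amn, Dab2 and Lrpap1, found by symbol among the 24964 genes of the deposited expression table. They were chosen by their FPKM values in the Foxo1dd against Foxo1ff contrast, which were already known, so their differences are described below and carry no p-value. RNA-seq was made from uterine luminal epithelium, the cell sheet that lines the uterine cavity, taken by laser capture on pregnancy day 4 from females that had been kept with their littermates until 8 weeks of age and then mated. The control group, Foxo1ff, carried the floxed Foxo1 alleles alone (Foxo1f/f, 3 samples). The other group, Foxo1dd, carried the same floxed alleles and 1 copy of Cre at the progesterone receptor locus (Pgrcre/+Foxo1f/f, 3 samples). Both groups therefore carry floxed Foxo1, and only Foxo1dd carries a Cre allele in Pgr, so loss of Foxo1 and the altered Pgr allele cannot be told apart. Cre from that locus acts in every cell that expresses the progesterone receptor, not in the epithelium alone. The labels call the samples bioreplicates and say nothing of the animals behind each, so the spread given here is that between samples and may be partly technical.

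Megalin, the product of Lrp2, is a very large receptor of the LDL receptor family that sits on the apical face of absorptive epithelia such as the kidney proximal tubule and the yolk sac. It takes up vitamin carriers, hormones, lipoproteins and other filtered or secreted proteins. Cubilin (Cubn) is a peripheral receptor without a membrane anchor of its own, which amnionless (Amn) brings to the surface, and the 2 proteins work beside megalin in the uptake of vitamin B12 and albumin. Dab2 is the adaptor that binds the cytoplasmic tail of megalin and joins it to clathrin coats. Lrpap1 encodes RAP, a chaperone of the endoplasmic reticulum that keeps newly made receptors of this family from binding their ligands too early.

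The start regions of the 2 genes with the largest differences, Lrp2 and Lrpap1, are shown because both genes were higher in Foxo1dd. Each window runs from 250 bases before to 50 bases after the start given by RefSeq (GRCm38.p6), 5′ to 3′ on the strand of the gene, which is the minus strand for both. Capitals mark GGGCGG, the GC box, searched on both strands and added after the sequences had been seen.
Lrp2, chr2:69585980-69586279: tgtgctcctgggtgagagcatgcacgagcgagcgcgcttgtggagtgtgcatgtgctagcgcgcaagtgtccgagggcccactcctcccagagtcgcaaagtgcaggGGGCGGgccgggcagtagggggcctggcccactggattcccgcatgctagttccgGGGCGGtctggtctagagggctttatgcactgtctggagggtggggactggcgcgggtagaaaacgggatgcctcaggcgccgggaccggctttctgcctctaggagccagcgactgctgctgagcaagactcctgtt
Lrpap1, chr5:35105650-35105949: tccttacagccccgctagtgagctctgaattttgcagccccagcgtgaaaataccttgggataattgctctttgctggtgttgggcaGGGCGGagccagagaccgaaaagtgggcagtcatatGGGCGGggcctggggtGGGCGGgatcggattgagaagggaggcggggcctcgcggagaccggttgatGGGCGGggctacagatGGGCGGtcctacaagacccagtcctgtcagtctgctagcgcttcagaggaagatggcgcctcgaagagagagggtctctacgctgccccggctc
The Lrp2 window held 2 such matches and the Lrpap1 window 5, and 35.7% of all 32851 windows of the same length held at least 1. That share is not matched for G and C content and is no background for 2 or 5 matches. Whether the motif bears on the level of either gene was not tested. The window of Lrp2 had 65% G and C bases and 20 CpG dinucleotides, that of Lrpap1 61.3% and 18. Over all windows the median was 52.7% and 7 CpG. Of the other 4 windows, only that of Amn held a GC box, 1 on the opposite strand. Those of Cubn and of the upstream Dab2 start held 44.3% and 37.7% G and C with 5 and 2 CpG. The windows of Amn and of the downstream Dab2 start held 62.3% and 59.3% with 15 and 19. The forkhead motif TGTTTAC, the hexamer AGAACA bound by the progesterone receptor, and the palindromic progesterone response element were searched on both strands in all 6 windows of the 5 genes. None of the 3 motifs occurred there, and they were present in 3.65%, 19% and 0.475% of all windows. A missing match says only that these letters are not in this window.

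The genotype labels were checked on Foxo1 and Pgr. Foxo1 was at 160.0, 118.5 and 110.8 FPKM (a level scaled for transcript length and sequencing depth) in Foxo1ff and at 1.72, 0.942 and 1.22 FPKM in Foxo1dd. Pgr was at 2.44, 1.64 and 2.02 FPKM in Foxo1ff and at 36.2, 29.9 and 28.3 FPKM in Foxo1dd, and reads from the Cre insertion were not resolved. Summed FPKM ran from 552190 to 667499 over the 6 libraries. Foxo1dd 2 stood apart, with 13995 genes above 0 against 15474 to 16062 elsewhere, and with most Rn45s, a precursor of ribosomal RNA (40296 FPKM). The epithelial genes Epcam and Krt18 were abundant in both groups, with means of 555 and 745 FPKM in Foxo1ff and of 393 and 908 FPKM in Foxo1dd. Of 11427 genes that averaged 1 FPKM or more over the 6 samples, 6445 (56.4%) differed between the genotypes at a limma adjusted p under 0.05, with 22.2% higher and 34.2% lower, and these shares are the background for the counts below. The 2533 higher and 3912 lower calls became 3075 and 3424 under median-of-ratios scaling and 3195 and 3376 under quantile normalization, so 39.3% of calls were higher as deposited and 47.3% and 48.6% under these scalings. The median log2 change of these genes, Foxo1dd minus Foxo1ff of log2(FPKM + 1), was -0.15, and -0.03 under median-of-ratios scaling.

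The receptor and its chaperone were higher in the Foxo1dd epithelium, the clathrin adaptor was slightly lower, and the cubilin and amnionless partners were close to 0 in both genotypes. Of the 5 members, 3 passed the minimum of 1 FPKM and 2 did not. By the fit over all genes 2 of the 3 (Lrp2 and Lrpap1, both higher) were past the threshold, against the background of 56.4% (22.2% higher). Since that contrast chose the members, nothing is read from the count. The groups did not overlap for the same 2 genes, against 25.3% of tested genes that were apart and higher, nor for Dab2, against 39.0% that were apart and lower. Fewer cells of a type and less RNA per cell cannot be told apart in such bulk samples.

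**Figure D1:**
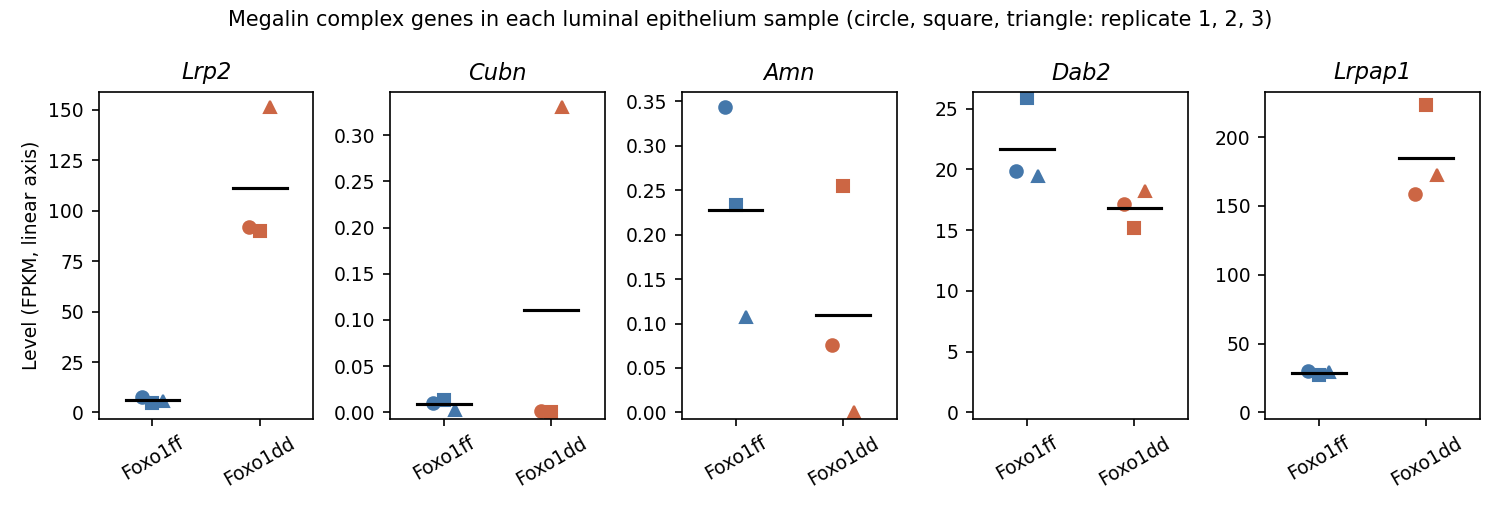
Level of each of the 5 genes in each sample in FPKM on linear axes of their own (circle, square and triangle are replicates 1, 2 and 3, the bar is the group mean). The 3 Foxo1dd samples lie far above the 3 Foxo1ff samples for Lrp2 and Lrpap1 and just below them for Dab2, while Cubn and Amn stay below 0.35 FPKM everywhere.

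Lrp2, the megalin gene (ENSMUSG00000027070.14, chromosome 2, 69424340 to 69586065, minus strand, mm10), was at 7.72, 4.74 and 5.85 FPKM in Foxo1ff 1, 2 and 3. In Foxo1dd 1, 2 and 3 it was at 91.7, 90.1 and 151.5 FPKM. All 3 Foxo1dd samples were far above all 3 Foxo1ff samples, and Foxo1dd 3 was the highest of the 6. The means were 6.10 ± 1.51 and 111 ± 35.0 FPKM (SD, n = 3 each), an 18.2-fold difference. On the log2(FPKM + 1) scale the difference was 3.96 ± 0.23 (SE). It was the 66th highest among the 11427 tested genes, with 0.569% of them above it. Leaving out 1 sample at a time gave 3.72 (without Foxo1dd 3) to 4.12. With an exon length of 16.7 kb, such levels stand for about 7804 to 11497 reads per Foxo1ff library and 111313 to 215097 per Foxo1dd library, so counting error is small beside the spread between samples.

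Lrpap1, the gene of the receptor chaperone RAP (ENSMUSG00000029103.16, chromosome 5, 35091501 to 35105766, minus strand), was at 30.2, 27.2 and 29.6 FPKM in Foxo1ff. It was at 158, 223 and 173 FPKM in Foxo1dd. Again no sample of one genotype came near the other, and here Foxo1dd 2 was the highest. The means were 29.0 ± 1.56 and 185 ± 34.0 FPKM (SD, n = 3 each), a 6.37-fold difference and 2.62 ± 0.14 on the log2(FPKM + 1) scale (SE). Among tested genes 2.24% had a higher log2 change.

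Dab2, the adaptor between megalin and clathrin (ENSMUSG00000022150.16, chromosome 15, 6299788 to 6440712, plus strand), was at 19.9, 25.8 and 19.4 FPKM in Foxo1ff. In Foxo1dd it was at 17.2, 15.2 and 18.3 FPKM. The groups were next to each other without overlap: the lowest Foxo1ff sample stood at 19.4 and the highest Foxo1dd sample at 18.3 FPKM. The means were 21.7 ± 3.58 and 16.9 ± 1.55 FPKM (SD, n = 3 each), a log2 difference of -0.34 ± 0.15 (SE) against the median of -0.15 for all tested genes. With median-of-ratios scaling the difference was -0.22. Relative to that median the deposited difference was -0.19, and Dab2 was not called. In the GENCODE annotation an exon of the pseudogene Gm18888, on the opposite strand, overlaps exon sequence of Dab2.

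**Figure D2:**
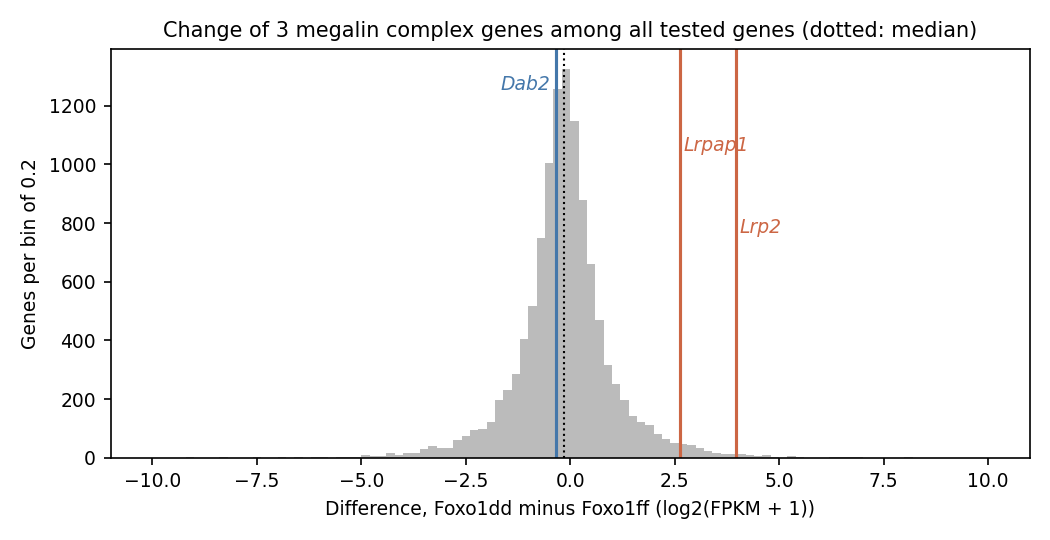
Number of tested genes (vertical axis, bins of 0.2) by their log2(FPKM + 1) difference, Foxo1dd minus Foxo1ff, with lines for Dab2 (-0.34), Lrpap1 (2.62) and Lrp2 (3.96) and a dotted line for the median of all tested genes (-0.15). Dab2 lies beside the median, and Lrpap1 and Lrp2 lie in the thin right tail.

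Cubn, the cubilin gene (ENSMUSG00000026726.10, chromosome 2, 13276338 to 13491813, minus strand), was at 0.010, 0.013 and 0.003 FPKM in Foxo1ff. It was at 0.002 FPKM in Foxo1dd 1, was listed at 0 in Foxo1dd 2 and stood at 0.330 FPKM in Foxo1dd 3. A single library thus held nearly all the signal, and the genotypes overlapped. With an exon length of 14.9 kb the values correspond to about 13.3, 19.2 and 3.7 reads in Foxo1ff, 2.3 reads in Foxo1dd 1 and 419 reads in Foxo1dd 3. For Foxo1dd 2, 3 reads would have been 0.0027 FPKM. The log2 difference was 0.13, and -0.01 without Foxo1dd 3, so no direction is given. Exons of Gm13270 lie on the opposite strand of Cubn, and whether reads were counted by strand is not given in the sources used here.

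Amn, the amnionless gene (ENSMUSG00000021278.7, chromosome 12, 111271095 to 111276426, plus strand), was at 0.343, 0.233 and 0.107 FPKM in Foxo1ff. It was at 0.076 and 0.254 FPKM in Foxo1dd 1 and 2 and listed at 0 in Foxo1dd 3. The ranges overlapped, and the library with the Cubn signal was the one with Amn at 0. At an exon length of 1.84 kb these are about 56.4, 42.4 and 16.3 reads in Foxo1ff and 10.8 and 34.6 reads in Foxo1dd 1 and 2. Both cubilin complex genes lay under the minimum of 1 FPKM in all 6 samples and were not tested.

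Compared per length within a sample, the balance among the expressed members differed with genotype. The FPKM ratio of Lrp2 to Dab2 was 0.389, 0.183 and 0.301 in the 3 Foxo1ff samples and 5.35, 5.93 and 8.30 in Foxo1dd, so the receptor message went from below that of its adaptor to above it. The ratio of Lrpap1 to Lrp2 went the other way, from 3.91, 5.74 and 5.06 to 1.73, 2.48 and 1.14. In each of the 6 samples the chaperone message was the higher of the pair, though by less in Foxo1dd. Lrp2 exceeded Cubn by 364 times or more in each of the 5 samples where Cubn was above 0. These ratios restate the values that chose the members and add no test.

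**Figure D3:**
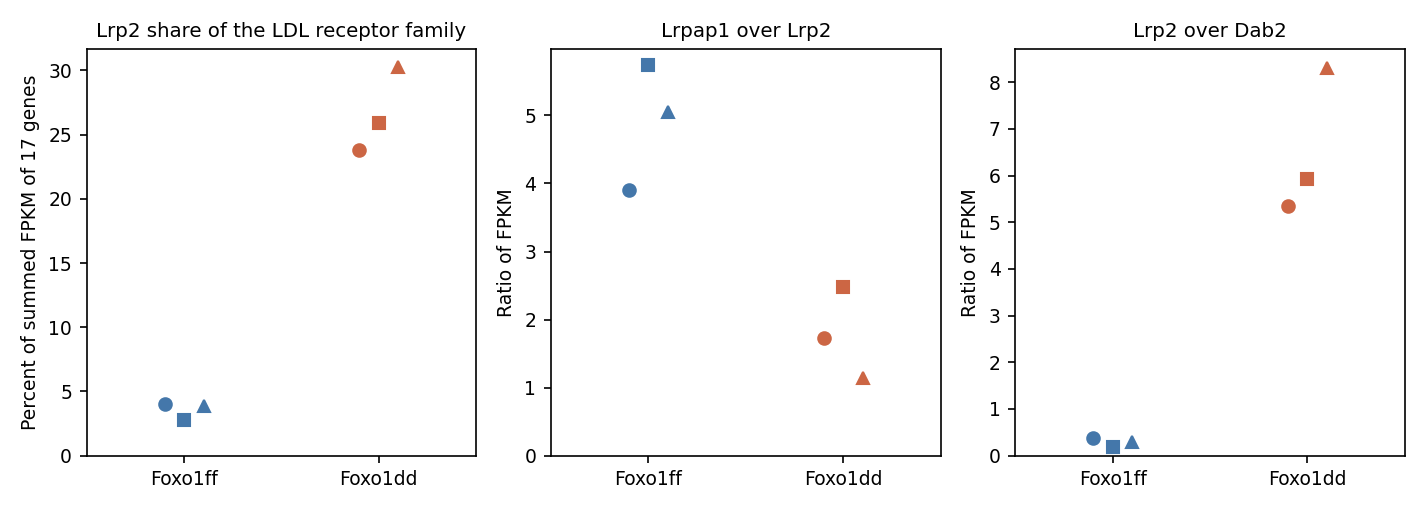
Values for each sample (circle, square and triangle are replicates 1, 2 and 3) on linear axes from 0. The first panel gives Lrp2 in percent of the summed FPKM of 17 genes of the LDL receptor and sortilin families. The others give the FPKM ratio of Lrpap1 to Lrp2 and that of Lrp2 to Dab2. Lrp2 holds 2.77% to 4.03% of that sum in Foxo1ff and 23.8% to 30.3% in Foxo1dd. In Foxo1dd the chaperone ratio is 1.14 to 2.48 and the adaptor ratio is 5.35 to 8.30.

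Among other receptors of the LDL receptor and sortilin families, some were higher and others lower. Of 16 listed genes, 9 were tested, 3 rose and 4 fell (77.8% called, median log2 change -0.35). Sorl1, a mosaic receptor of both families that also binds RAP, was at 9.28, 7.16 and 7.04 FPKM in Foxo1ff and at 137, 122 and 162 FPKM in Foxo1dd. All 3 Foxo1dd samples were far higher, a log2 change of 4.00 ± 0.15 (SE, limma adjusted p = 2.47e-07). Sort1, encoding sortilin, rose 5.24-fold (log2 change 2.28 ± 0.17 SE, limma adjusted p = 7.18e-06). Vldlr, the very low density lipoprotein receptor, fell from 15.9, 21.2 and 12.3 FPKM to 0.611, 0.468 and 1.40 FPKM (log2 change -3.26 ± 0.25 SE, limma adjusted p = 8.20e-06). Ldlrad3 fell by 1.41 on the log2 scale (limma adjusted p = 0.00041). The WNT co-receptors Lrp5 and Lrp6 also fell, with log2 changes of -1.19 and -1.04. Lrp5 and Lrp6 were named after their values had been seen. Within the 17 genes that include Lrp2, Lrp2 was 8th by FPKM in every Foxo1ff sample and 2nd in every Foxo1dd sample.

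The genes whose levels over the 6 samples were most like those of Lrp2 were Gstm1, a glutathione transferase with near-identical relatives, Kctd14 and Sorl1. Their root mean square differences from the centred Lrp2 profile were 0.086, 0.146 and 0.171 on the log2(FPKM + 1) scale. The closest to Lrpap1 were Zfp956 (0.091), Marcksl1 and Samd14 (0.103 each). For Dab2 they were Nelfe (0.054), Eif2d (0.059) and Sars (0.0605). The 6 samples fall into 2 groups, so these are descriptions of level alone.

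Coat and adaptor genes changed in both directions, in shares near those of all tested genes. Of 35 listed genes 33 were tested, of which 7 rose (21.2%, beside 22.2% of all genes) and 12 fell (36.4%, beside 34.2%), with a median log2 change of -0.30 beside -0.15 over all tested genes. Gipc1, a scaffold that binds the megalin tail, fell from 166 to 77.0 FPKM (means). Hip1, which joins clathrin to actin, rose from 3.45 to 26.5 FPKM, and Fcho1, which starts coated pits, from 2.56 to 12.3 FPKM (means). Of the coat itself, the clathrin heavy chain Cltc fell from 314 to 144 FPKM while the light chains Clta and Cltb rose, with log2 changes of 0.52 and 1.22. Of the AP2 adaptor subunits, Ap2a2 and Ap2b1 fell by 1.10 and 0.88 on the log2 scale. Ap2a1 and Ap2s1 fell by 0.52 and 0.46. Ap2a1 lost its call without Foxo1ff 1, Foxo1ff 2, Foxo1dd 1 or Foxo1dd 2 (adjusted p = 0.0551 to 0.0784), and Ap2s1 under median-of-ratios scaling (0.0863), quantile normalization (0.0539) and without Foxo1ff 2 (0.0718) or Foxo1dd 1 (0.0549). Dab1, the relative of Dab2 known from reelin signalling, was at 0.034, 0 and 0.058 FPKM in Foxo1ff and at 10.2, 1.11 and 8.01 FPKM in Foxo1dd. It is among the 7 that rose, but it passed the minimum of 1 FPKM through Foxo1dd alone. The clathrin, AP2 and Dab1 values were picked out after they had been seen.

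Of the genes that sort and recycle receptors after uptake, 22 of the 33 tested were not called. From the 36 listed, 7 rose and 4 fell (33.3% called, median log2 change -0.03), and 9 rose and 3 fell under median-of-ratios scaling, 10 and 3 under quantile normalization. The number that rose was 4 without Foxo1ff 2, without Foxo1ff 3 or without Foxo1dd 3. Rab11a, a GTPase of recycling endosomes, was at 472, 539 and 532 FPKM in Foxo1ff and at 93.0, 91.0 and 77.2 FPKM in Foxo1dd, with no overlap (log2 change -2.55 ± 0.12 SE, limma adjusted p = 7.45e-07). Ehd4 fell from 51.1 to 22.7 FPKM, while Rab4b and the PDZ scaffold Slc9a3r2 rose from 19.8 to 45.6 and from 29.0 to 56.5 FPKM (means). Clcn5 and Ocrl, whose loss in people impairs megalin-dependent uptake in the kidney, were not called. Clcn5 averaged 7.13 and 5.43 FPKM in Foxo1ff and Foxo1dd, and Ocrl 12.4 and 10.3 FPKM. They too were chosen after their values had been seen.

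While Lrpap1 was higher, other chaperone and retrieval genes of the endoplasmic reticulum were lower. Of 19 tested folding and proteolysis genes 1 rose and 9 fell (52.6% called, median log2 change -0.32), and the 9 are such chaperones and KDEL receptors. Among them Kdelr1 (log2 change -0.32) lost its call under median-of-ratios scaling (adjusted p = 0.171), quantile normalization (0.208) and on leaving out any sample other than Foxo1ff 3 or Foxo1dd 3 (0.0941 to 0.123). The KDEL receptors, which return escaped chaperones to the endoplasmic reticulum, include Kdelr3, at 27.4, 27.1 and 26.4 FPKM in Foxo1ff and at 4.44, 4.95 and 3.35 FPKM in Foxo1dd (log2 change -2.43 ± 0.15 SE, limma adjusted p = 2.93e-06). Kdelr2 fell from 199 to 94.8 FPKM, the lectin chaperone Canx from 387 to 100.4 FPKM and the disulfide isomerase Pdia3 from 1037 to 338 FPKM (means). Mesd, the chaperone of LDL receptor family propeller domains, fell from 48.0 to 27.4 FPKM (limma adjusted p = 0.000364). The gene that rose was Psenen, a subunit of gamma-secretase, by 0.47 on the log2 scale. Mesd and Psenen were named after their values had been seen. The sets of rises and falls were not tested against those of other genes.

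**Figure D4:**
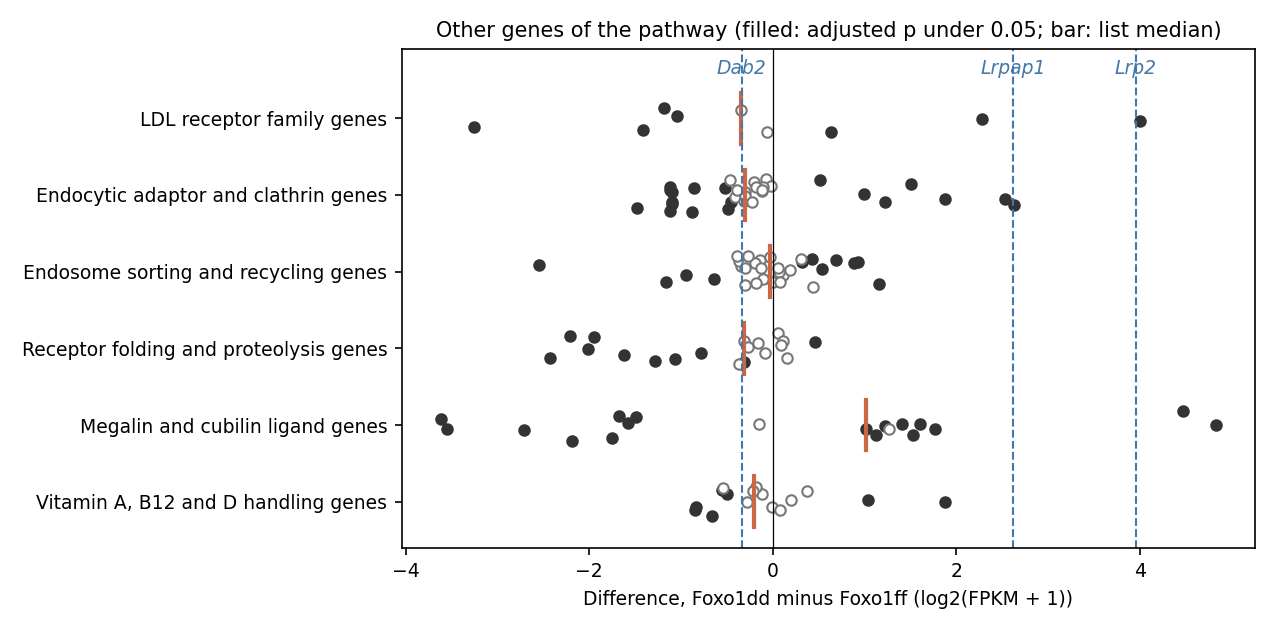
Difference in log2(FPKM + 1), Foxo1dd minus Foxo1ff, for each tested gene of 6 lists (filled circles passed an adjusted p under 0.05, open circles did not, vertical bars are list medians), with dashed lines for Dab2, Lrpap1 and Lrp2. Circles lie on both sides of 0 in each list, the folding list has its large changes on the left, and list medians run from -0.35 to 1.02.

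Messages of known megalin and cubilin ligands moved both ways. Of 45 symbols listed, 40 were in the table, 19 were tested, 9 rose and 8 fell (89.5% called, median log2 change 1.02), and 11 were listed at 0 in every sample. Those at 0 included Gc (vitamin D-binding protein), Alb and Shh. Ctgf, a matricellular growth factor, was at 37.6, 11.95 and 28.9 FPKM in Foxo1ff and at 573, 524 and 538 FPKM in Foxo1dd (log2 change 4.47 ± 0.33 SE, limma adjusted p = 7.22e-06). Folr1, a folate receptor that megalin can bind, fell from a mean of 15.5 to 0.395 FPKM (log2 change -3.54 ± 0.19 SE, limma adjusted p = 1.12e-06). Fth1 (ferritin heavy chain) and Cst3 (cystatin C) were 6.58-fold and 3.20-fold lower. Named after their values had been seen, Plat (tissue plasminogen activator) had 5.12 and 157 FPKM and Rbp4 (the plasma retinol carrier) 12.7 FPKM in Foxo1ff and 0 in each Foxo1dd library.

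Genes that handle the vitamins carried by these receptors were mostly below a log2 change of 1. Of 21 listed genes 16 were tested, 2 rose and 5 fell (43.8% called, median log2 change -0.20), and the number that fell was 3 without Foxo1ff 2. Mtr, the B12-dependent methionine synthase, was at 21.4, 11.4 and 13.8 FPKM in Foxo1ff and at 63.1, 57.7 and 53.0 FPKM in Foxo1dd (log2 change 1.87 ± 0.21 SE, limma adjusted p = 6.78e-05). Its reductase Mtrr fell from 14.5 to 7.66 FPKM, the exporter Abcc1 from 55.8 to 30.6 FPKM and the retinoid receptor Rxrb from 35.1 to 21.8 FPKM (means). The vitamin D genes Cyp27b1 and Vdr were under the minimum, with Foxo1ff means of 0.0763 and 0.349 FPKM and Foxo1dd means of 0.0277 and 0.0433 FPKM, and Cyp24a1 was listed at 0 in every sample.

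Genes beside the members in the genome were measured as well. For each member the nearest tested gene on either side was taken (GENCODE M21), 10 in all. Of these 3 rose, 4 fell and 3 were not called, beside 22.2% higher and 34.2% lower over all tested genes. Nothing is read from the count of so few genes. Genes under the minimum of 1 FPKM were passed over as neighbours, and C9 and Trdmt1 reached that minimum through Foxo1dd alone. Neither neighbour of Lrp2 rose: Spc25, 218 kb away, had a log2 change of -1.04 (limma adjusted p = 0.0196) and Bbs5, 61.1 kb away, of -0.22 (limma adjusted p = 0.342). Spc25 missed the threshold when no filter was applied (adjusted p = 0.0679) and on leaving out any sample other than Foxo1ff 1 or Foxo1dd 3 (0.0508 to 0.0752). Of the neighbours of Lrpap1, Hgfac, 43.0 kb away, fell by 1.38 and Trmt44, 450.4 kb away, by 0.58 on the log2 scale. Trmt44 lost its call without Foxo1ff 1, Foxo1ff 2 or Foxo1ff 3 (limma adjusted p = 0.0566, 0.0774 and 0.0512). Beside Cubn, Trdmt1 rose from 0.758 to 3.23 FPKM and Rsu1 was not called. Beside Amn, Traf3 fell from 11.4 to 4.02 FPKM and Cdc42bpb was not called. C9, a complement gene 4.6 kb beyond Dab2, rose from 0.107 to 2.41 FPKM. Ptger4, 1055.6 kb away on the other side of Dab2, rose from 33.2 to 61.1 FPKM. No member lies on chromosome 9, which carries Pgr and the Cre insertion. Effects of the altered Pgr allele on genes of other chromosomes were not tested.

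Megalin, cubilin, amnionless and Dab2 are also known from the visceral endoderm of the embryo, and Dab2 from macrophages and endothelium, so markers of these cells were read in the same libraries. Of 16 blastocyst and endoderm markers 3 were tested and rose (Elf5, Sox7 and Sox17), and the summed FPKM of the list was 49.6 to 57.8 in Foxo1ff and 313 to 409 in Foxo1dd, most of it from Sox17, which uterine epithelium also expresses. The endoderm genes Gata4, Hnf4a, Ttr and Apoa1 and the trophectoderm gene Cdx2 were listed at 0 in all 6 samples. Afp had means of 0.014 and 0.095 FPKM. Of 17 macrophage and leukocyte markers 10 were tested, 3 rose and 7 fell. Their summed FPKM was 112 to 132 in Foxo1ff and 213 to 251 in Foxo1dd, mostly from Cd14 and Laptm5. Ptprc, the pan-leukocyte marker, was at 3.59 and 0.294 FPKM, and C1qa at 5.42 and 1.16 FPKM. Of 13 endothelial markers 1 was tested, Egfl7, which fell from 4.59 to 2.05 FPKM (means) and made up most of the Foxo1ff sum. The sum of the list was 5.72 to 6.98 FPKM in Foxo1ff and 4.24 to 6.43 FPKM in Foxo1dd. Of the markers below the minimum, Pecam1, Cdh5, Vwf and Plvap were higher in every Foxo1dd sample than in any Foxo1ff sample, with means of 0.087 and 0.207 FPKM for Pecam1, 0.247 and 0.980 for Cdh5, 0.705 and 1.19 for Vwf and 0.023 and 0.103 for Plvap. Stab1 was lower in every Foxo1dd sample (0.214 and 0.027 FPKM), and Kdr, Tek, Tie1, Emcn, Cldn5, Lyve1 and Stab2 overlapped. Over all tested genes 25.3% were apart and higher and 39.0% apart and lower, so nothing is read from these markers. Pecam1, Cdh5, Vwf, Plvap and Stab1 were picked out after their values had been seen and were not tested. Luminal and pan-epithelial markers summed to 2414 to 3151 FPKM in Foxo1ff and 3790 to 4611 FPKM in Foxo1dd. All 12 were tested, 5 rose (Krt8, Krt19, Wnt7a, Calb1 and Sprr2f), 2 fell (Epcam and Cdh1) and 5 were not called. Calb1 had means of 4.13 and 539 FPKM and Krt8 of 280 and 680 FPKM, so the sum follows a part of the list. Glandular markers summed to 51.8 to 210 FPKM in Foxo1ff and 1.04 to 6.54 FPKM in Foxo1dd. Of the 7 genes 4 were tested, 1 rose (Lif) and 3 fell (Spink1, Prss28 and Prss29). Most of the Foxo1ff sum came from Spink1, with means of 93.3 and 0.124 FPKM. Foxa2, under the minimum, overlapped between the groups (means of 0.943 and 0.644 FPKM). Stromal markers summed to 39.5 to 46.1 and 43.6 to 62.3 FPKM (11 of 14 tested, 3 rose and 0 fell). Smooth muscle markers summed to 11.1 to 13.7 and 6.65 to 8.40 FPKM (3 of 6 tested, 0 rose and 1 fell). The 1 that fell was Smtn, with means of 8.31 and 3.20 FPKM. Mesothelial markers summed to 29.0 to 39.4 and 3.27 to 8.58 FPKM (2 of 5 tested, 1 rose and 1 fell). Msln fell from 32.2 to 0.044 FPKM and Krt5 rose from 0.231 to 5.06 FPKM (means). The part of any of these cells in the levels of the 5 genes was not tested.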

How the data were processed

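RNA-seq of 3 Foxo1ff and 3 Foxo1dd samples was used as the FPKM table that the authors deposited, with 1 value per gene and sample. Per the submitters' processing notes, the build was mm10 and the tools listed, in no stated role, were STAR 2.5.2b, featureCounts 1.5.0-p1, Subread, DESeq2 1.12.4 and edgeR 3.28.0. Which annotation, gene lengths and strand setting were used is not given in the sources used here.

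FPKM values are not counts, so log2(FPKM + 1) was tested with limma 3.58.1 in R 4.3.3 (eBayes with a trend, genotype as the only term) on genes averaging 1 FPKM or more, and p-values were adjusted by Benjamini-Hochberg over these 11427 genes. Some genes, such as Dab1, Vldlr, Folr1 and Rbp4, passed the minimum of 1 FPKM through 1 genotype alone. The procedure was tested on simulated data with independent noise and a far smaller share of changed genes than was called here. That run cannot show how the calls behave in these data. The 5 members, the gene lists and the tests were chosen with earlier results of these data known. Other genes named include those with the smallest p in each list other than the cell marker lists (up to 4). They also include the nearest profiles, the neighbours and those marked as chosen after their values were seen. Some named genes fall outside these rules and carry no such mark. Among them are Kdelr1, many cell markers, and list genes under the minimum such as Gc, Alb, Shh and Vdr. These were named as examples and not by a fixed rule. Some genes of the lists are not reported here by name, though the counts include them.

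Approximate reads came from the step of low values of microRNA, small nucleolar and small nuclear RNA genes. By it 1 read was worth 0.0101 to 0.0135 FPKM at 1 kb, over 23 genes (Foxo1dd 2, the least certain) to 127 genes. Of these values 91.3% to 100% were whole to within 0.05 of a read. The step was chosen so that at least 80% were whole, so this share is no separate check of it. Exon lengths and positions are from GENCODE M21, start windows from RefSeq. Alternatives were a pseudocount of 0.1, no filter, median-of-ratios scaling, quantile normalization, a replicate block and leaving out each sample.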

Additional observations from a re-analysis of the deposited data

How the results depend on the processing

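The differences of Lrp2, Lrpap1 and Dab2 and the counts over all genes kept their direction, and the counts stayed within 1.5 times, under each alternative run. With a pseudocount of 0.1 the log2 differences of the genes near 0 grew, to 0.59 for Cubn and -0.76 for Amn, because that scale stretches low values. Leaving out each sample in turn gave -0.011 to 0.19 for Cubn, whose sign turned without Foxo1dd replicate 3 (-0.011). Over the same omissions 4 to 8 endosome sorting genes rose and 3 to 6 vitamin handling genes fell, and the cause was not tested. Whether the bioreplicate numbers pair the samples is not given by the labels. Deviations of same-numbered samples correlated at 0.123, 0.107 and -0.133 across genes, and those of differently numbered samples at -0.207 to 0.15. With 3 samples per group these values are tied to each other and cannot decide on pairing. With the number as a replicate block 2417 genes were higher and 3724 lower, against 2533 and 3912 without it, and the differences of the 5 members were as before. Of 63 other genes followed through the alternatives, 56 kept their direction and call under each alternative in which they were tested. Not every gene named above is among the 63. The calls of the markers Krt8, Krt19, Wnt7a, Calb1, Sprr2f, Cdh1, Lif, Spink1, Prss28, Prss29, Smtn, Msln and Krt5 were not followed. Kdelr1 lost its call under the block (adjusted p = 0.0842), and Krt18 gained one under median-of-ratios scaling (0.0481), quantile normalization (0.0208) and without Foxo1ff replicate 1 (0.0184). The AP2 subunit Ap2m1, not called, turned from -0.07 to 0.055 and 0.078 under these scalings. Calls of Spc25, Trmt44, Ap2a1 and Ap2s1 that were lost are given above. Depth limits Cubn and Amn, which rest on few reads in most libraries, and 3 samples per group limit the rest.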
